A study of Arabidopsis thaliana with 12 samples.

Results

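The comparison described here asks whether cat2-2 seedlings of Arabidopsis thaliana responded to photorespiratory stress in a different way when they had been given pakerine. For each gene it sets the stress ratio of pakerine-treated plants (Pakerine + RGCL over Pakerine) against the stress ratio of mock-treated plants (DMSO + RGCL over DMSO), both on the log2 scale. The rule takes all genes of the deposited table, so that 21882 of 21882 genes are members, and no measured value chose them. RGCL stands for restricted gas, continuous light, the condition that was used to impose the stress.

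All 4 groups were cat2-2 plants, which carry a defect in the peroxisomal catalase CAT2, and leaf RNA was sequenced from 3 libraries per group. Seedlings were grown for 7 days in liquid medium, which was then replaced by medium with 10 µM pakerine or the solvent DMSO (0 µM). The non-stressed plants were harvested after 4 days of incubation with 16 h of light per day. The stressed plants received 2 further days of restricted gas exchange with light for 24 h per day. Stress, age, day length and the time spent with pakerine changed together and cannot be told apart. In 6 of 12 libraries the labels contradict themselves: the title names one of the groups Pakerine and DMSO + RGCL, and the fields for growth condition and chemical name the other. The difference between the stress ratios has the same value if these 2 groups are exchanged, because both enter it with the same sign. The stress ratios themselves do change, and they are given here under the headings of the table. Under these headings LHY was high in both RGCL groups (84.4 CPM in Pakerine + RGCL and 54.8 CPM in DMSO + RGCL) and low in Pakerine and DMSO (1.04 and 3.06 CPM), while GH3.3 was higher in both groups with pakerine (27.3 CPM with RGCL and 45.7 CPM without) than in DMSO + RGCL and DMSO (9.99 and 7.20 CPM).

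During photorespiration, glycolate oxidase in leaf peroxisomes releases H2O2, which catalase removes. In catalase-deficient leaves a rise in photorespiration lets H2O2 accumulate, which is followed by oxidative signaling, salicylate-dependent defense gene expression and cell death. Pakerine is a sulfamoyl benzamide found in a chemical screen for compounds that delay this cell death, and AIM1, a peroxisomal enzyme of fatty acid β-oxidation, which takes part in jasmonate synthesis, was named as a putative target.

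The table holds a mean CPM (reads of a gene scaled to a common library total) per group and no values of single libraries. A mean of 3 libraries is a sum of whole read counts divided by 3 library totals. Because low means are listed with many decimals, these totals and, for every value under 10 CPM, the read count of each library could be solved for exactly. All values below that limit had a single solution, and none had several. The libraries held between 28472236 and 33512708 reads. Within each group they are numbered from the deepest to the shallowest, and these numbers do not match replicate numbers of the labels. The 8463 genes that were under 10 CPM in all 4 groups could therefore be tested over 12 libraries. The genes above this level have no replicate error here and are given as means with a 95% interval from read counting alone.

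For most genes the stress ratio was of similar size with and without pakerine. Across the 21882 genes the 2 stress ratios had a Pearson correlation of 0.863 and a Spearman correlation of 0.798, given as a description across genes, which are not independent replicates. The 2 ratios share no library. The difference between them had a median of 0.027 and an SD of 0.255 on the log2(CPM + 0.5) scale, and 94.4% of the genes lay within 0.5 of 0. Of the 116 genes whose stress ratio in mock-treated plants was at least 2, 115 also reached at least 1 in pakerine-treated plants. The median ratio of these 116 genes was 2.68 in pakerine-treated and 2.39 in mock-treated plants.

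**Figure D1:**
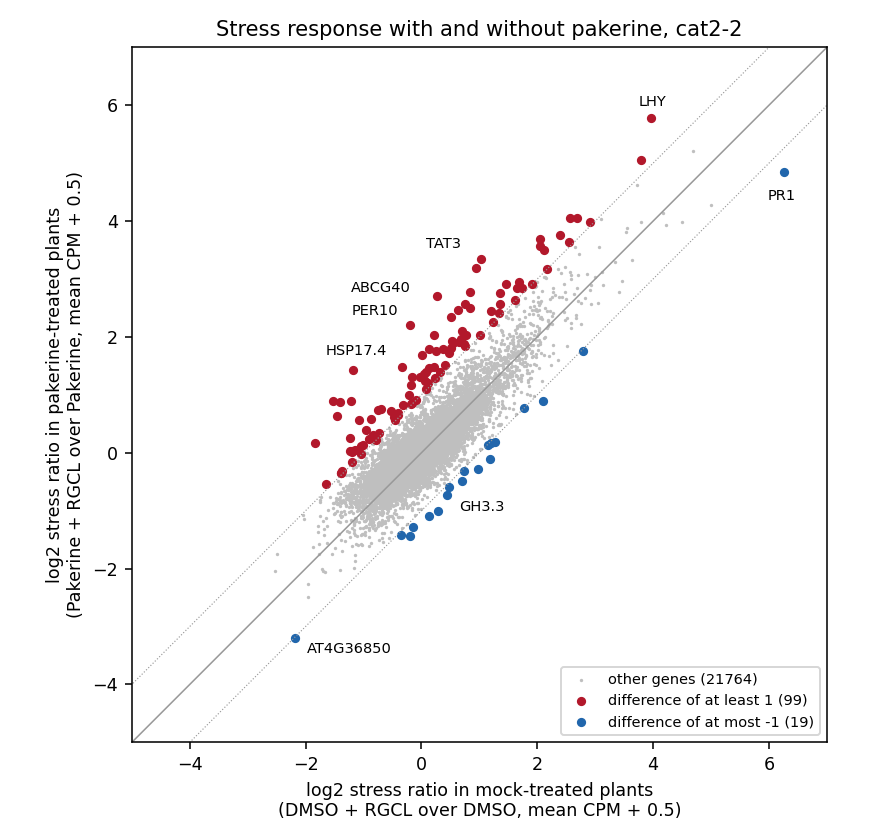
Each point is a gene, with its log2 stress ratio in pakerine-treated plants on the vertical axis and in mock-treated plants on the horizontal axis, from group means with 0.5 CPM added. The solid line marks equal ratios and the dotted lines a difference of 1 in either direction. The 99 genes in red lie above the upper dotted line and the 19 genes in blue below the lower one.

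The difference was at least 1 for 99 genes (0.452% of all genes) and at most -1 for 19 genes (0.0868%). It ranged between -1.41 and 2.61. The threshold falls within a continuous range of values: the last gene inside it on the higher side had a difference of 1.001 and the next one outside 0.998, while on the lower side these values were -1.004 and -0.977. Together these were 118 genes (0.539%). The library values of 60 of the 99 higher and 11 of the 19 lower genes could be recovered. Over all genes, 56.1% had a difference above 0 and 43.9% below 0.

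The higher genes followed a recurring order of the 4 groups. In 89 of the 99 genes the mean without stress was lower in pakerine-treated than in mock-treated plants, and in 95 of the 99 the mean under stress was higher. Their median log2 ratio of pakerine-treated over mock-treated plants was 0.69 under stress and -0.65 without stress, against 0.02 and -0.02 over all genes. Both stress ratios were positive for 56 of them. For another 37 the stress ratio was positive in pakerine-treated and negative in mock-treated plants. Of the 19 lower genes, 17 had a higher mean in pakerine-treated than in mock-treated plants without stress. Under stress the mean was lower with pakerine in 13 of them and higher in 6. Their median ratio of pakerine-treated over mock-treated plants was -0.31 under stress and 0.83 without stress. Because the difference is built from these ratios, the orders describe the genes and are no separate result.

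In all, 3 genes passed the test of the interaction, which asks whether the stress effect differed with pakerine: PER10, BBX16 and JAZ5 (limma with Benjamini-Hochberg adjustment, FDR of at most 0.05). They are 0.0354% of the 8463 genes tested, and all of them had the higher stress effect in pakerine-treated plants. No gene passed in the lower direction. At an unadjusted p under 0.05 there were 470 higher genes (5.55% of those tested) and 247 lower ones (2.92%). At an FDR of at most 0.1, 17 genes were higher (0.201%) and 1 was lower (0.0118%). With voom, which weights each value by its expected precision, no gene passed at an FDR of 0.05 in either direction. Under voom, 214 of the 8463 genes were lower at an unadjusted p under 0.05, and the higher ones were not counted, so that the directions cannot be compared there. Single libraries moved the count at 0.05: without DMSO + RGCL library 1 it was 21 higher and 1 lower, without Pakerine + RGCL library 2 it was 11 higher and without library 1 of that group 9. Without DMSO library 1 it was 6 higher and 1 lower, without Pakerine library 1 it was 1 higher, and without Pakerine library 3 it was 3 higher and 1 lower.

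PER10 (AT1G49570, chromosome 1, 18346958 to 18349049, TAIR10.1) encodes a class III peroxidase, one of the secreted heme enzymes that use H2O2 in the cell wall. It had 3.61, 5.79 and 6.87 CPM in the Pakerine + RGCL libraries, against 0.895, 0.529 and 0.931 CPM in Pakerine. The DMSO + RGCL libraries had 0.840, 1.61 and 0.526 CPM, against 1.15, 1.41 and 1.05 CPM in DMSO. Every Pakerine + RGCL library thus lay above all of the other 9. The DMSO + RGCL libraries overlapped both non-stressed groups, and the Pakerine libraries lay below the DMSO libraries. The interaction was 2.43 ± 0.35 on the log2(CPM + 0.5) scale (SE, limma, adjusted p = 0.0109), and its adjusted p lay between 0.000956 and 0.0433 when each library was left out in turn. Stress raised PER10 in pakerine-treated plants by 2.18 ± 0.25 (SE, adjusted p = 3.01e-06), and the effect in mock-treated plants was -0.25 ± 0.25 (SE, adjusted p = 0.501). The gene was among those the study chose on these samples, so that its result is not independent evidence.

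BBX16 (AT1G73870, chromosome 1, 27778984 to 27780809) encodes a B-box zinc finger protein of the CONSTANS-like family of transcriptional regulators. Its libraries had 4.41, 3.02 and 3.04 CPM in Pakerine + RGCL, against 0.0597, 0.311 and 0.138 CPM in Pakerine. They had 1.38, 1.15 and 1.12 CPM in DMSO + RGCL, against 0.721, 0.492 and 0.351 CPM in DMSO. The 4 groups did not overlap, and the gene was at its lowest with pakerine alone and at its highest with pakerine and stress. The interaction was 1.81 ± 0.28 (SE, adjusted p = 0.0109). The call was lost without Pakerine library 1 (1.69, adjusted p = 0.0626) and without DMSO + RGCL library 3 (1.77, adjusted p = 0.0502), and it held without each of the other 10.

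JAZ5 (AT1G17380, chromosome 1, 5955155 to 5957511) encodes a JAZ protein, a repressor of jasmonate-responsive transcription whose own gene is induced by the hormone. Its Pakerine + RGCL libraries had 1.99, 3.24 and 2.71 CPM, against 0.448, 0.342 and 0.448 CPM in Pakerine. In mock-treated plants stress made little difference, with 0.780, 0.821 and 1.09 CPM in DMSO + RGCL and 0.688, 0.787 and 0.843 CPM in DMSO. The interaction was 1.64 ± 0.26 (SE, adjusted p = 0.0109), with adjusted p between 0.0058 and 0.0705 when each library was left out. The call was lost without DMSO library 3, Pakerine library 1 or 2, or Pakerine + RGCL library 3.

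**Figure D2:**
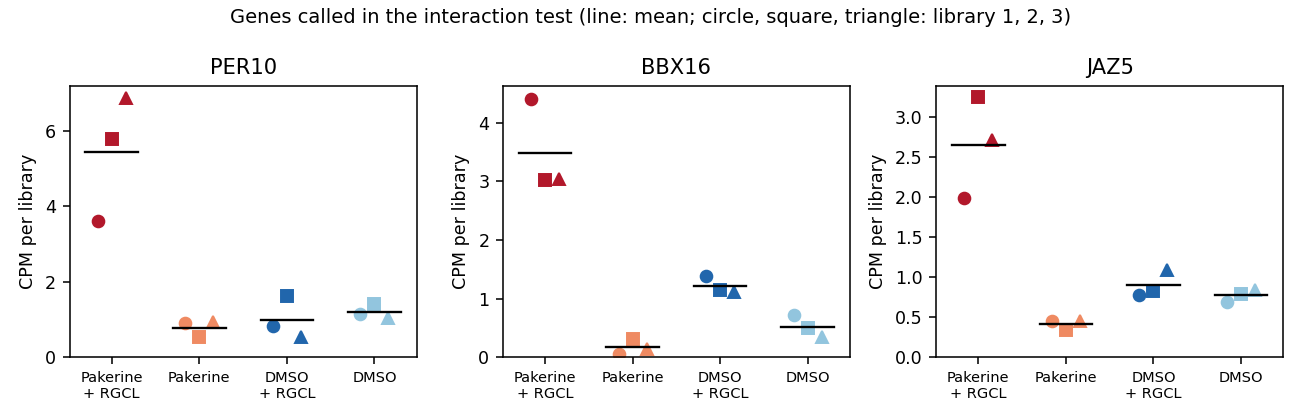
CPM of PER10, BBX16 and JAZ5 in each of the 12 libraries, by group, with black lines at the group means and symbols for libraries 1 to 3 of a group. In all 3 genes every Pakerine + RGCL library lies above the libraries of the other groups, and the Pakerine libraries of BBX16 and JAZ5 lie below all others.

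The highest difference of all genes was found for HSP17.4, and the heat shock list had the highest median of the 28 lists. Small heat shock proteins bind unfolding proteins and are made after heat and other stresses that damage proteins. Of 13 heat shock genes on the list, 11 were in the table and 7 had a difference of at least 1, against 0.452% of all genes. The median difference of the list was 1.26, against 0.027 over all genes. None of the 6 members that could be tested passed an FDR of 0.05, and 5 of them had an unadjusted p under 0.05.

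In HSP17.4, HSP17.6A, HSP17.6C, HSP17.6II and HSP23.6 the stress ratio was negative in mock-treated and positive in pakerine-treated plants. HSP17.4 (AT3G46230), which encodes a cytosolic class I protein and shares 58.3% of its 75-base stretches with the gene AT3G07365, had 18.1 CPM in Pakerine + RGCL and 6.45 CPM in Pakerine, against 5.90 CPM in DMSO + RGCL and 14.1 CPM in DMSO. Its difference was 2.61 (95% counting interval 2.42 to 2.79). The class II protein gene HSP17.6A had 15.7, 6.50 and 6.6 CPM in the Pakerine + RGCL libraries and 5.94, 4.85 and 4.1 CPM in the Pakerine libraries. It had 5.55, 2.76 and 3.22 CPM in DMSO + RGCL and 5.80, 9.15 and 13.8 CPM in DMSO. The stress effect was 0.78 ± 0.30 in pakerine-treated plants (SE, adjusted p = 0.0691) and -1.19 ± 0.30 in mock-treated plants (SE, adjusted p = 0.00577), and the interaction was 1.97 ± 0.42 (SE, limma, adjusted p = 0.0869). HSP17.6II, the other class II gene, had an interaction of 2.13 ± 0.46 (SE, adjusted p = 0.0994).

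Libraries of a group differed widely in these genes. HSP17.6C, which like HSP17.4 encodes a class I protein, had 6.86, 1.93 and 2.03 CPM in Pakerine + RGCL and 1.58, 1.28 and 2.27 CPM in Pakerine. It had 1.71, 0.197 and 0.757 CPM in DMSO + RGCL and 1.93, 3.25 and 5.37 CPM in DMSO. Library 1 of Pakerine + RGCL, library 1 of DMSO + RGCL and library 3 of DMSO were thus the high libraries of their groups. The summed level of the 6 recovered heat shock genes showed the same order, with 44.1, 16.0 and 20.3 CPM in Pakerine + RGCL, 14.7, 11.9 and 14 CPM in Pakerine, 17.1, 8.87 and 11.3 CPM in DMSO + RGCL, and 17.0, 25.9 and 35.1 CPM in DMSO. Without Pakerine + RGCL library 1 the interaction of HSP17.6A was 1.57 (adjusted p = 0.115) and that of HSP17.6C was 1.79 (adjusted p = 0.225). Without DMSO library 3 these values were 1.68 (adjusted p = 0.219) and 1.99 (adjusted p = 0.378). Other libraries moved the test the opposite way. Without DMSO + RGCL library 1 the interaction passed 0.05 for HSP17.6A (2.24, adjusted p = 0.0307), HSP17.6C (2.72, adjusted p = 0.0397), HSP17.6II (2.38, adjusted p = 0.0397) and HSP23.6 (2.3, adjusted p = 0.0307). Without Pakerine + RGCL library 2 it did so for HSP17.6A (2.18, adjusted p = 0.046), HSP17.6II (2.48, adjusted p = 0.0193) and HSP23.6 (2.29, adjusted p = 0.0322), and without DMSO library 1 for HSP17.6A (2.27, adjusted p = 0.0396).

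Other members of the heat shock list spread more widely. HSFA2, a heat stress transcription factor, had a difference of 1.26, and the mitochondrial HSP23.6 had 2.01. The chaperone genes HSP90.1, HSP101 and HSP70 had differences of 1.09, 0.97 and 0.77. HSP18.2 and HSFA7A went the other way, with -0.11 and -0.36. Hop3, which encodes a co-chaperone and was chosen after its values were seen, had 18.4 CPM in Pakerine + RGCL and 16.8 CPM in Pakerine, against 9.94 CPM in DMSO + RGCL and 20.4 CPM in DMSO.

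Promoter sequence was read from the RefSeq assembly TAIR10.1 for the 250 bases before the annotated gene start, for 21362 genes of the table. Heat stress factors bind heat shock elements, repeats of GAA and TTC, searched here on both strands as the triplets GAA, TTC and GAA with 2 bases between neighbours. This motif was present in 0.421% of all promoters of that length and in 4 of the 98 promoters of genes with a difference of at least 1 (4.08%). The 4 were HSP17.4, HSP17.6C, HSFA2 and AT1G71000. The promoters of HSP17.4 and HSP17.6C are shown because these class I genes had the highest differences among heat shock genes, with each match in capitals. They lie on chr3:16984868-16985117, minus strand, and chr1:19980049-19980298, plus strand.
HSP17.4: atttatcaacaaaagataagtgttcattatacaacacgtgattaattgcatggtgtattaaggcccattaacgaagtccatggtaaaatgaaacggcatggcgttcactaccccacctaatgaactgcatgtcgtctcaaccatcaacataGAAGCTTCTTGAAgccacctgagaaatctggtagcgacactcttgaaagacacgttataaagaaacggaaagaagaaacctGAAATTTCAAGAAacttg
HSP17.6C: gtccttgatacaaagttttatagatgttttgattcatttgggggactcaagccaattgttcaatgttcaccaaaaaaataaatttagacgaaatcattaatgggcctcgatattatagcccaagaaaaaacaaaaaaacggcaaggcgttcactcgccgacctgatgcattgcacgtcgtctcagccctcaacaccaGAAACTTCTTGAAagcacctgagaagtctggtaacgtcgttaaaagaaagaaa
The first match in HSP17.4 began 99 bases before the gene start and that in HSP17.6C 53 bases before it. A match describes the letters of this window and not a bound site. The heat shock genes HSP17.6A, HSP17.6II, HSP23.6, HSP90.1, HSP101, HSP70 and HSP18.2 held none in theirs. HSFA7A, with a difference of -0.36, held 2 matches, so that the motif did not separate the higher members of the list from the others.

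Jasmonate-responsive genes were also found among the higher genes. The MYC branch of the jasmonate response, which answers wounding and herbivores, had 5 of 17 list members with a difference of at least 1, against 0.452% of all genes, and a median of 0.48. JAZ5 was the only called gene among its 9 tested members. The median stress ratio of the list was 0.49 in pakerine-treated and 0.18 in mock-treated plants. TAT3, a tyrosine aminotransferase gene that is a classical jasmonate marker, had 6.80, 6.38 and 4.3 CPM in Pakerine + RGCL and 0.239, 0.0311 and 0.103 CPM in Pakerine. In DMSO + RGCL it had 3.03, 1.68 and 1.25 CPM and in DMSO 0.229, 0.295 and 1.65 CPM. The Pakerine + RGCL libraries were the highest and the Pakerine libraries were low, while the mock-treated groups overlapped. The interaction of TAT3 was 2.19 ± 0.46 (SE, adjusted p = 0.0869), and only without DMSO + RGCL library 1 did it pass 0.05 (2.47, adjusted p = 0.0307). Leaving out any other library gave an adjusted p between 0.0532 and 0.264. Without DMSO library 3, the high library of its group, the interaction was 1.69 (adjusted p = 0.187).

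VSP1 and VSP2 encode vegetative storage proteins, which have acid phosphatase activity. VSP1 had 3.86, 5.26 and 5.95 CPM in Pakerine + RGCL, 1.61, 2.52 and 1.76 CPM in Pakerine, 2.49, 1.81 and 2.86 CPM in DMSO + RGCL, and 2.06, 1.87 and 4.39 CPM in DMSO. Its interaction was 1.28 ± 0.34 (SE, adjusted p = 0.259), and that of VSP2 was 1.07 ± 0.36 (SE, adjusted p = 0.358). CORI3, a cystine lyase gene, had a difference of 1.25, with a stress ratio of 1.91 in pakerine-treated and 0.66 in mock-treated plants. The JAZ genes other than JAZ5 had differences between -0.04 for JAZ12 and 0.79 for JAZ7. MYC2, the transcription factor after which the branch is named, had 0.38, but 98.5% of its 75-base stretches also lie in the overlapping gene AT1G32630, so that its reads are uncertain.

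In jasmonate biosynthesis, 10 of 11 genes had a difference above 0, against 56.1% of all genes, with a median of 0.38, but only LOX2 reached 1. LOX2, the chloroplast lipoxygenase of the first step, had 293 CPM in Pakerine + RGCL and 163 CPM in Pakerine, against 195 CPM in DMSO + RGCL and 220 CPM in DMSO. AOC3, which encodes an allene oxide cyclase, had a difference of 0.84 and an interaction of 0.81 ± 0.27 (SE, adjusted p = 0.354). Of the peroxisomal enzymes on this list, OPR3 and OPCL1 had differences of 0.35 and 0.53. The 13 genes of the separate list of peroxisomal β-oxidation had a median of -0.11, and none passed 1 in either direction. AIM1 had 223 CPM in Pakerine + RGCL and 229 CPM in Pakerine, against 261 CPM in DMSO + RGCL and 248 CPM in DMSO, a difference of -0.12. MFP2, the close relative of AIM1, had a difference of 0.00.

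The plant defensins are antifungal peptides whose genes respond to jasmonate and ethylene together through ERF transcription factors. Of 14 list members in the table, 2 had a difference of at least 1, against 0.452% of all genes, and the median was 0.30. PDF1.2a (AT5G44420) had 4.17, 6 and 6.02 CPM in Pakerine + RGCL and 0, 0.0311 and 0.0345 CPM in Pakerine. It had 4.77, 3.65 and 6.35 CPM in DMSO + RGCL and 0.623, 0.951 and 0.667 CPM in DMSO. The 2 stressed groups overlapped, whereas without stress the Pakerine libraries were at 0 to 1 read and all below DMSO. The interaction was 1.38 ± 0.28 (SE, adjusted p = 0.0727), and without Pakerine + RGCL library 1 it was 1.54 (adjusted p = 0.0417). PDF1.2c followed the same order with an interaction of 1.35 ± 0.41 (SE, adjusted p = 0.297), and PDF1.3 had 0.62 ± 0.33 (SE, adjusted p = 0.652). PDF1.2b had a difference of 0.19, with 9.06 CPM in Pakerine + RGCL and 0.105 CPM in Pakerine against 13.9 CPM in DMSO + RGCL and 0.542 CPM in DMSO. Both non-stressed means of PDF1.2b were below or close to the 0.5 CPM added before taking logs, so that its difference depends on the value added. The same limit holds for PDF1.2a, whose Pakerine libraries were all far below 0.5 CPM. PDF1.2a, PDF1.2c and PDF1.3 were among the genes that the study chose on these samples.

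ERF factors bind the GCC box, searched as GCCGCC on both strands, which was present in 1.98% of all promoters and in 5 of the 98 promoters of the higher genes (5.10%). These included PER59, HSP23.6 and HSFA2, which are not defensin genes, whereas PDF1.2c held none. The defensin genes PDF1.2b and PDF1.5, with differences of 0.19 and 0.89, each held 1. The promoter of PDF1.2a is shown for its GCC box, in capitals, 222 bases before the gene start. It lies on chr5:17907639-17907888, minus strand.
PDF1.2a: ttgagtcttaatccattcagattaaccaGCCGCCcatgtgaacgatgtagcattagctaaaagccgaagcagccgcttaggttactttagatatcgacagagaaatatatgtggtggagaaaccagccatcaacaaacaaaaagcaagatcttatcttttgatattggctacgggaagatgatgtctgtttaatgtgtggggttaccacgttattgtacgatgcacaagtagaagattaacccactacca
Of the factors themselves, ERF1 had an interaction of 0.88 ± 0.28 (SE, adjusted p = 0.339) and ORA59 a difference of 0.46. The G-box CACGTG, which MYC and other bHLH and bZIP factors bind, was found in 7.18% of all promoters and in 16 of the 98 higher ones (16.3%), among them LHY, CCA1, LHCB2.3 and LSU3. JAZ5 held none in its window.

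**Figure D3:**
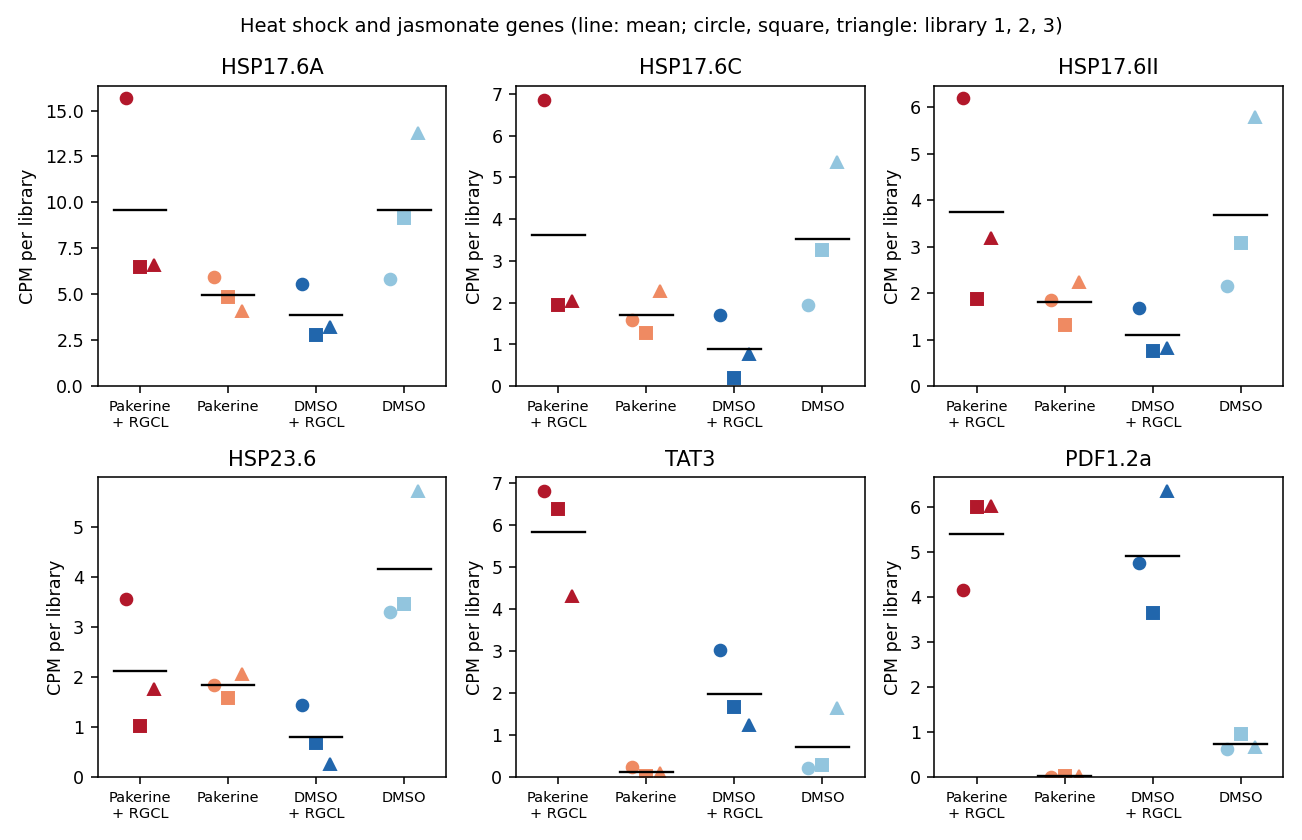
CPM per library of 4 small heat shock genes and of the jasmonate-responsive TAT3 and PDF1.2a, by group, with black lines at the means. Library 1 of Pakerine + RGCL and library 3 of DMSO are the highest of their groups in each of the heat shock genes, and the Pakerine libraries of PDF1.2a lie at or near 0.

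Genes of the circadian clock and of light harvesting stood among the highest differences. LHY and CCA1 encode related MYB factors that peak around dawn and repress evening genes. LHY had 84.4 CPM in Pakerine + RGCL and 1.04 CPM in Pakerine, against 54.8 CPM in DMSO + RGCL and 3.06 CPM in DMSO, with a difference of 1.82 (counting interval 1.58 to 2.07). CCA1 had 25.6 and 1.08 CPM with pakerine, with and without stress, against 21.3 and 2.89 CPM in mock-treated plants. Without stress, the 3 Pakerine libraries of LHY had 1.16, 1.28 and 0.689 CPM and the 3 DMSO libraries 2.72, 4.13 and 2.32 CPM, which did not overlap. The other 21 clock genes lay between -0.36 for RVE2 and 0.88 for LNK2. Since clock genes change with time of day and light regime, and stressed plants were kept in continuous light, the hour of harvest and the stress cannot be told apart for them.

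The light-harvesting genes LHCB1.1, LHCB2.3, LHCB2.1 and LHCB2.2 were the 4 of 44 nuclear photosynthesis genes with a difference of at least 1, against 0.452% of all genes. They encode chlorophyll-binding proteins of photosystem II. LHCB1.1 had 274 CPM in Pakerine + RGCL and 53.6 CPM in Pakerine, against 179 CPM in DMSO + RGCL and 126 CPM in DMSO, and a difference of 1.84. LHCB2.3 had 35.9 and 10.7 CPM in stressed and non-stressed pakerine-treated plants, against 22.4 and 22.3 CPM in mock-treated plants. The other 10 LHCB genes on the list lay between -0.49 for LHCB4.3 and 0.93 for LHCB3. The median of the whole list was 0.11. LHCB2.1 and LHCB2.2 share 14.5% and 19.1% of their 75-base stretches with each other, and LHCB2.3 shares 37.5% with its neighbour AT3G27700. LHCB1.1 shares 7.02% with LHCB1.3 and 3.39% with LHCB1.2. Reads may thus be divided between these genes.

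GBSS1, the granule-bound starch synthase, had 32.3 CPM in Pakerine + RGCL and 2.26 CPM in Pakerine, against 17.8 CPM in DMSO + RGCL and 3.93 CPM in DMSO. Its stress ratio was 3.57 in pakerine-treated and 2.04 in mock-treated plants. ABCG40, an ABC transporter that takes up abscisic acid, had the second highest difference of all genes, 2.45. It had 15.1 CPM in Pakerine + RGCL, whereas the other means were 1.88 CPM in Pakerine, 2.84 CPM in DMSO + RGCL and 2.28 CPM in DMSO. The 9 libraries of those 3 groups ranged between 1.52 and 2.92 CPM.

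**Figure D4:**
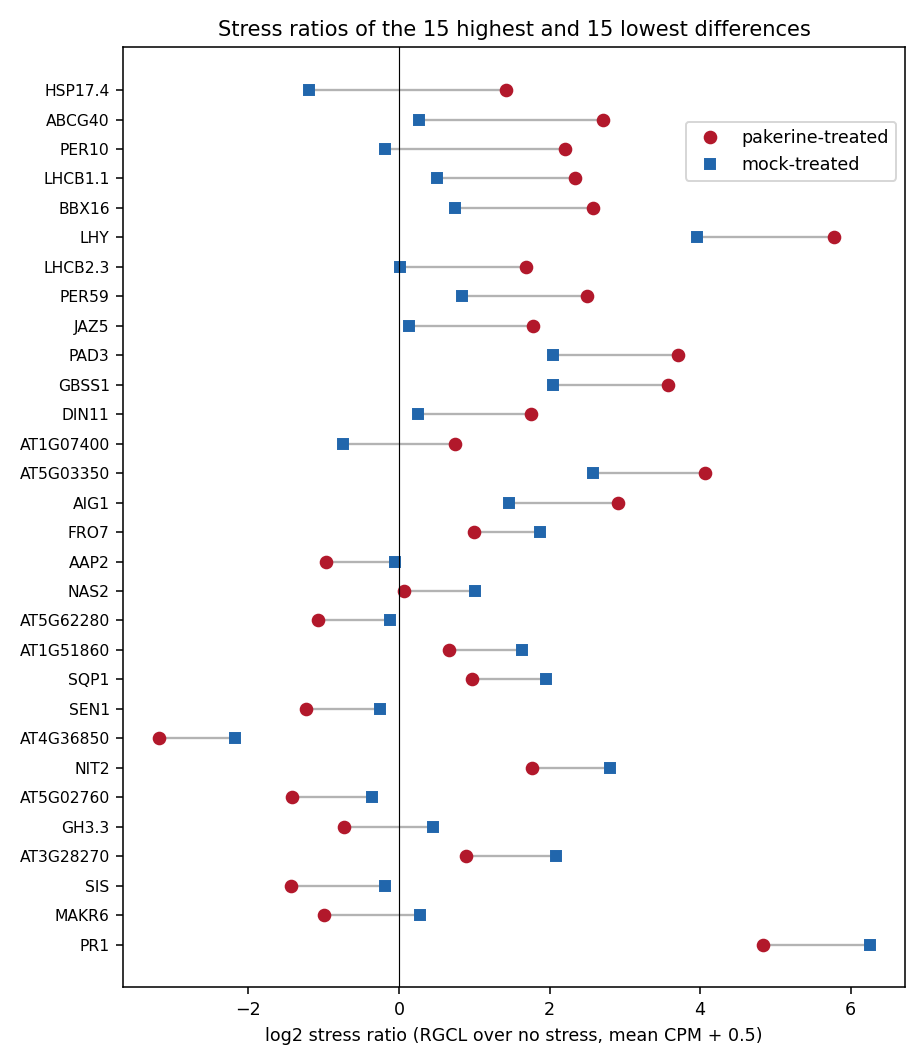
Log2 stress ratios of the 15 genes with the highest and the 15 with the lowest difference among genes with a mean of at least 1 CPM (tested genes only if called), with circles for pakerine-treated and squares for mock-treated plants. HSP17.4 and PER10 have ratios on opposite sides of 0, while those of LHY and PR1 are positive in both treatments and differ in size.

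Members of the salicylate response list lay on both sides of the thresholds, between -1.41 and 1.27. PR1, the standard marker of the salicylate response, had the lowest difference of all genes, -1.41 (counting interval -1.70 to -1.13). It had 20.7 CPM in Pakerine + RGCL and 0.240 CPM in Pakerine, against 56.7 CPM in DMSO + RGCL and 0.250 CPM in DMSO, so that stress went with a higher level in both. PR1 was above the range in which libraries could be recovered in the stressed groups, and the difference therefore has no replicate check. PCC1 and WRKY70 of the same list went the other way, with differences of 1.27 and 1.01. WRKY70 had 95 CPM in Pakerine + RGCL and 10.0 CPM in Pakerine, against 102 CPM in DMSO + RGCL and 22.3 CPM in DMSO. Of the 22 list members, 16 had a difference above 0 and 6 below, against 56.1% and 43.9% of all genes, with a median of 0.26. PR2 had -0.31 and PR5 0.27.

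Among 12 genes of salicylate and N-hydroxypipecolate synthesis, 11 had a difference above 0, against 56.1% of all genes. FMO1, which makes N-hydroxypipecolate, had 3.61, 1.31 and 1.29 CPM in Pakerine + RGCL and 0.209, 0.124 and 0.241 CPM in Pakerine. It had 1.77, 0.559 and 0.395 CPM in DMSO + RGCL and 0.0983, 0.295 and 1.02 CPM in DMSO. These libraries spread widely within groups, and the interaction was 1.25 ± 0.50 (SE, adjusted p = 0.477). ICS1, the isochorismate synthase that feeds salicylate synthesis, had a difference of 0.51. PAD3, the last enzyme of camalexin synthesis, had 15.1 CPM in Pakerine + RGCL and 0.702 CPM in Pakerine, against 5.00 CPM in DMSO + RGCL and 0.833 CPM in DMSO, with a difference of 1.65. CYP71A13, an earlier enzyme of that pathway, had 0.551, 7.44 and 1.18 CPM in Pakerine + RGCL, with library 2 far above the others. Its interaction was 1.37 ± 0.60 (SE, adjusted p = 0.529) and was 0.51 without Pakerine + RGCL library 2 (adjusted p = 0.531).

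Among genes that respond to H2O2 or handle it, the 24 antioxidant enzymes had a median of 0.02, with none past 1 in either direction, and MDAR3, a monodehydroascorbate reductase, the highest at 0.66. Of the 16 H2O2-responsive transcripts, 12 were above 0, against 56.1% of all genes, with a median of 0.33, and UPOX and UGT74E2 reached 1.35 and 1.02. UPOX had 19.7 CPM in Pakerine + RGCL and 15 CPM in Pakerine, against 15.1 CPM in DMSO + RGCL and 29.8 CPM in DMSO. UGT74E2, a glucosyltransferase of indole-3-butyric acid, had 84.6 and 10.7 CPM with pakerine, with and without stress, against 95.4 and 25.1 CPM in mock-treated plants. CAT2 transcripts were present in these mutants, with 108 CPM in Pakerine + RGCL and 37.2 CPM in Pakerine, against 76.1 CPM in DMSO + RGCL and 19.5 CPM in DMSO, a difference of -0.41. Of 24 glutathione transferases, 18 had a difference above 0, against 56.1% of all genes, and GSTU3 and GSTU9 reached 1.23 and 1.09. GSTU3 had 0.184, 2.89 and 0.575 CPM in Pakerine + RGCL, with library 2 the high one. Its interaction was 0.90 ± 0.48 (SE, limma, adjusted p = 0.655), and it was 0.24 without Pakerine + RGCL library 2 and 1.39 without library 1. That of GSTU9 was 0.99 ± 0.33 (SE, adjusted p = 0.358), and it was 0.61 without DMSO library 1.

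Among 63 class III peroxidases in the table, only PER10 and PER59 had a difference of at least 1, against 0.452% of all genes, and the median was 0.17. PER59 had 12.5 CPM in Pakerine + RGCL and 1.81 CPM in Pakerine, against 2.21 CPM in DMSO + RGCL and 1.02 CPM in DMSO. Read counts of its libraries could be solved only under the assumption that each lay within 2-fold of its mean, which gave an interaction of 1.69 (adjusted p = 0.134). PER20 and PER11 had the lowest differences of the family, -0.87 and -0.85.

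On the lower side, genes of carbon starvation had the lowest median of the 28 lists, -0.39, and 22 of 23 had a difference below 0, against 43.9% of all genes, although none reached -1. These genes are induced in leaves when sugars run out in prolonged darkness. The median stress ratio of the list was -0.95 in pakerine-treated and -0.64 in mock-treated plants. SEN1, a dark-induced gene, had 236 CPM in Pakerine + RGCL and 553 CPM in Pakerine, against 525 CPM in DMSO + RGCL and 624 CPM in DMSO. BXL1, a β-xylosidase, had 384 CPM in Pakerine + RGCL and 1113 CPM in Pakerine, against 637 CPM in DMSO + RGCL and 1012 CPM in DMSO. STP1, a hexose transporter, and MCCA, an enzyme of leucine breakdown, had differences of -0.78 and -0.72. Only 1 gene of this list, DIN2, was low enough to be tested. It was also the single member above 0, with an interaction of 0.29 ± 0.71 (SE, limma, adjusted p = 0.947), so that none of the 22 lower members has a replicate error.

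Auxin-responsive genes were the next on the lower side, with 18 of 21 below 0, against 43.9% of all genes, and a median of -0.29. Pakerine itself went with higher levels of these genes, with a median log2 ratio over mock-treated plants of 0.62 under stress and 0.75 without. GH3.3, which conjugates auxin to amino acids, had 27.3 CPM in Pakerine + RGCL and 45.7 CPM in Pakerine, against 9.99 CPM in DMSO + RGCL and 7.20 CPM in DMSO, a difference of -1.18. LBD29, a target of auxin response factors in lateral root founder cells, had an interaction of -0.66 ± 0.23 (SE, adjusted p = 0.399). EXPA16, an expansin gene chosen after its values were seen, was the single lower gene at an FDR of at most 0.1. It had 2.45, 2.92 and 3.35 CPM in Pakerine + RGCL and 9.04, 8.37 and 5.89 CPM in Pakerine. In mock-treated plants the groups were close, with 3.3, 4.21 and 3.69 CPM in DMSO + RGCL and 4.26, 3.54 and 4.67 CPM in DMSO, and the interaction was -1.13 ± 0.23 (SE, adjusted p = 0.0727). It was -1.20 without DMSO + RGCL library 1 (adjusted p = 0.0397) and -1.30 without Pakerine library 3 (adjusted p = 0.0343). Leaving out any other library gave an adjusted p between 0.102 and 0.212.

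Suberin genes had a median of -0.21, with 10 of 13 below 0, against 43.9% of all genes. CYP86A1, which hydroxylates the fatty acids of root suberin, had 4.66, 3.27 and 5.01 CPM in Pakerine + RGCL and 5.82, 5.41 and 4.86 CPM in Pakerine. It had 5.58, 2.79 and 2.60 CPM in DMSO + RGCL and 2.06, 0.853 and 1.93 CPM in DMSO. The DMSO libraries were thus the lowest, and the interaction was -1.26 ± 0.35 (SE, adjusted p = 0.275). The samples are labelled as leaf material. All 10 leaf marker genes were at 37.4 CPM or more in each group. Of 21 root cell markers, 18 reached 1 CPM in Pakerine + RGCL and in Pakerine, against 13 in DMSO + RGCL and 15 in DMSO. Their summed level was 213 CPM in Pakerine + RGCL and 239 CPM in Pakerine, against 91.2 CPM in DMSO + RGCL and 114 CPM in DMSO. Their median difference was 0.20, none passed 1 in either direction, and the part of root RNA in the suberin and auxin values was not tested.

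The photorespiratory genes themselves had a median of -0.22, with 19 of 27 below 0, against 43.9% of all genes. GLDP1, a subunit of glycine decarboxylase, had 2082 CPM in Pakerine + RGCL and 1127 CPM in Pakerine, against 2010 CPM in DMSO + RGCL and 765 CPM in DMSO. GOX1, a glycolate oxidase gene, had 1265 CPM in Pakerine + RGCL and 1124 CPM in Pakerine, against 1265 CPM in DMSO + RGCL and 823 CPM in DMSO. In both genes the stressed groups were close and the non-stressed groups apart. Since these genes were above the range of recovery, the differences of -0.51 and -0.45 carry counting error only.

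Genes of sulfur deficiency, hypoxia and cell division had higher medians than all genes together. Of 14 sulfur deficiency genes, 13 had a difference above 0, against 56.1% of all genes, with a median of 0.51. GGCT2;1, which degrades glutathione, had 6.49, 3.92 and 6.66 CPM in Pakerine + RGCL, 0.537, 0.342 and 0.379 CPM in Pakerine, 4.11, 3.25 and 2.70 CPM in DMSO + RGCL, and 1.41, 0.951 and 0.632 CPM in DMSO. Its interaction was 1.34 ± 0.31 (SE, adjusted p = 0.148). That value passed 0.05 only without Pakerine + RGCL library 2 (1.57, adjusted p = 0.0454), and without library 3 of that group it was 1.22 (adjusted p = 0.413). The core hypoxia genes had a median of 0.52, with SAD6 the only one past 1, at 1.25. Its libraries spread widely, with 12.2, 8.93 and 2.1 CPM in Pakerine, and its interaction was 1.28 ± 0.69 (SE, limma, adjusted p = 0.668), against 0.59 without Pakerine library 3. All 15 cell division genes had a difference above 0, against 56.1% of all genes, with a median of 0.39. They were lower under stress in both treatments, with a median stress ratio of -0.65 in pakerine-treated and -1.01 in mock-treated plants, and CYCB1;1, a mitotic cyclin gene, had the highest difference, 0.82.

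**Figure D5:**
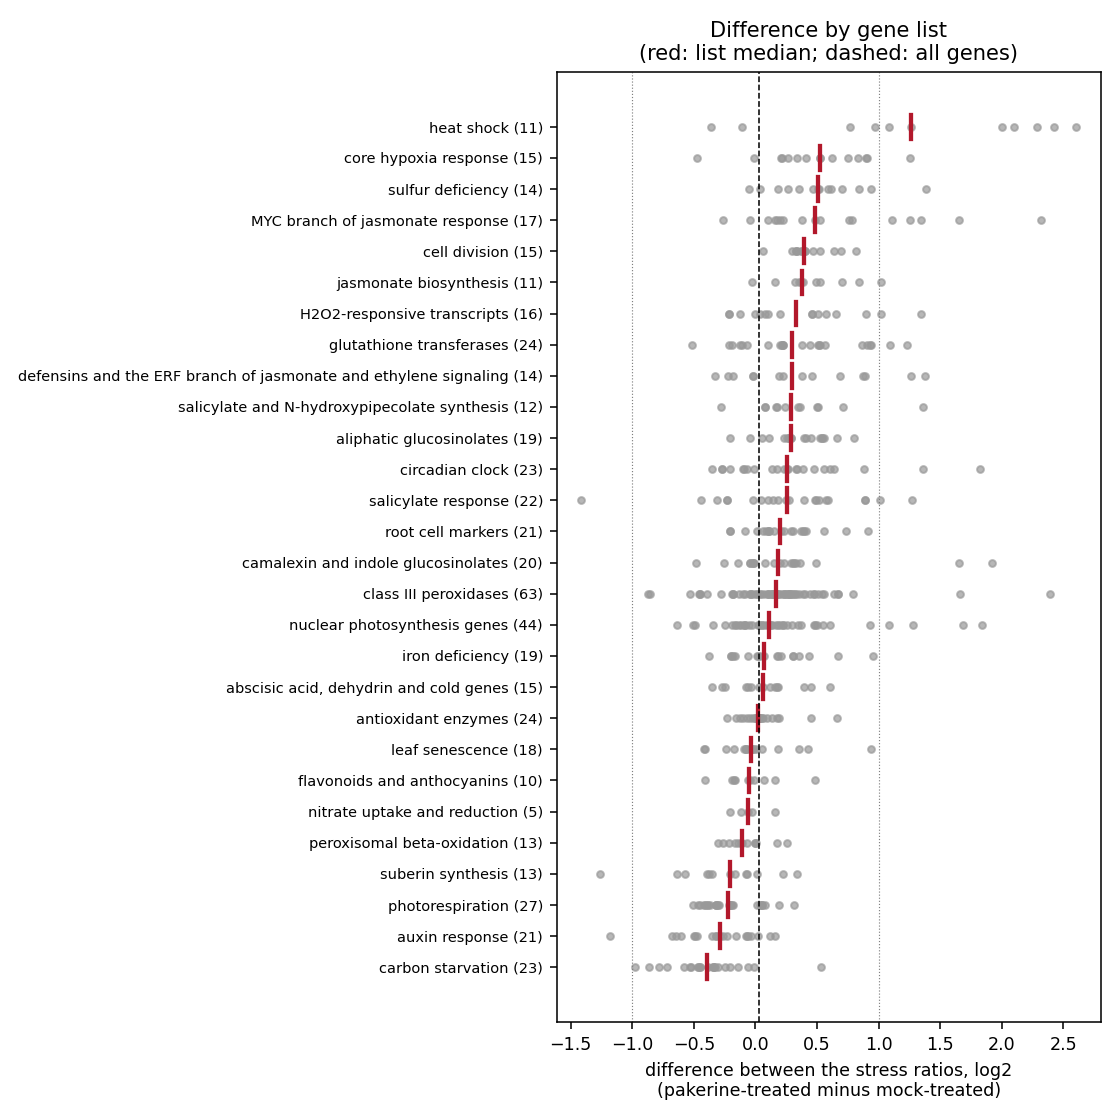
Difference between the stress ratios (horizontal axis, log2) for each member of the 28 gene lists, as grey points, with red bars at the list medians, the number of genes in brackets and a dashed line at the median of all genes. The heat shock list lies highest with a median of 1.26 and the carbon starvation list lowest with -0.39.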

How the data were processed

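Reads were single-end. Per the labels, trimming by the authors used Trim Galore 0.3.3, alignment TopHat2 2.1.0 on the TAIR10 genome, and counting per gene featureCounts (Subread 1.4.6), and the use of strand is not given in the sources used here. The deposited values are CPM, 1 mean for each of 4 groups of 3 libraries. The table also holds the authors' own fold changes, p-values and lists of changed genes, which were not used. Library totals and read counts were solved from the decimals of means under 10 CPM, since each mean is a sum of whole reads over 3 totals. The difference between the stress ratios was taken on log2(CPM + 0.5) and called at 1. For 8463 genes the interaction was fitted to 12 libraries with limma 3.58.1 in R 4.3.3 and Benjamini-Hochberg adjustment, called at an FDR of 0.05. The labels do not say that libraries came from separate cultures, so p-values measure only the spread between these samples. The fit was also run on simulated data, and the outcome of that run is not used here. Counting intervals (95%) cover counting error only. Genes named were the 15 highest and 15 lowest with a mean of at least 1 CPM, where tested genes entered only if called. Named as well were up to 4 per list, CAT2, AIM1, MFP2 and genes the study names. The genes and the 28 lists were chosen with earlier results of these data known. RefSeq names matched 21731 genes, and shared sequence was measured in stretches of 75 bases. Alternatives varied the pseudocount, filter, scaling, threshold, weighting and the libraries.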

Additional observations from a re-analysis of the deposited data

Results flagged for a closer look

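PER10, BBX16 and JAZ5 had stress effects that differed between pakerine-treated and mock-treated plants by the test of the difference itself (limma interaction, adjusted p = 0.0109 each). The differences were 2.43 for PER10, 1.81 for BBX16 and 1.64 for JAZ5 on the log2(CPM + 0.5) scale, and in each gene all 3 Pakerine + RGCL libraries lay above the other 9.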

How the results depend on the processing

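The number of genes with a difference past 1 depended on the value added before taking logs and on the threshold. With 0.1 CPM added it was 310 higher and 119 lower, and with 2 CPM 40 and 5. At a threshold of a 1.5-fold difference it was 528 and 229, and at 2 it was 10 and 0. A filter at a mean of 1 CPM (89 and 17) and median-of-ratios scaling (90 and 21) moved it by less than 1.5 times. In the interaction test, voom gave 0 higher genes, an FDR of at most 0.01 with an absolute log2 value of at least 1 gave 0, and an FDR of at most 0.1, chosen after seeing the data, gave 17 higher and 1 lower. Leaving out single libraries gave 1 to 21 higher and 0 to 1 lower genes, and the cause was not tested. PER10 kept its call in 18 of its alternatives and lost it in 2, BBX16 in 16 and 4, and JAZ5 in 14 and 6. Adding genes whose libraries could be solved only within 2-fold of the mean, also chosen after seeing the data, left 3 higher. No paired analysis was possible because the recovered libraries carry no replicate numbers. The planned edgeR test was not run, since it was tied to a check of the deposited columns for whole reads, which group means did not pass. Genes at 10 CPM or more have no replicate error here.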

Other observations

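Phosphate starvation genes were chosen after their values were seen, and so carry no test. All 16 had a difference above 0, against 56.1% of all genes, with a median of 0.50, and 4 reached 1, against 0.452% of all genes. PHT1;2, a phosphate transporter gene, had 6.10, 3.42 and 6.33 CPM in Pakerine + RGCL and 1.22, 1.56 and 2.31 CPM in Pakerine, against 0.990, 1.45 and 0.428 CPM in DMSO + RGCL and 1.11, 0.427 and 1.09 CPM in DMSO. It shares 38.1% of its 75-base stretches with PHT1;1. IPS1, a non-coding RNA of the phosphate response, had 7.54, 7.19 and 8.90 CPM in Pakerine + RGCL and 1.67, 1.49 and 1.45 CPM in Pakerine, against 7.62, 3.91 and 5.89 CPM in DMSO + RGCL and 2.49, 3.74 and 1.65 CPM in DMSO.

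NATA1, an acetyltransferase gene that responds to jasmonate, was also chosen after its values were seen. It had 0.214, 8.80 and 3.25 CPM in Pakerine + RGCL and 0 CPM in all 3 Pakerine libraries, where a count of 0 over the group allows up to 0.0317 CPM. NATA1 had 0.18, 0.131 and 1.35 CPM in DMSO + RGCL and 0, 0.0656 and 0.0702 CPM in DMSO. Over all 12 libraries its interaction was 1.78 ± 0.80 (SE, limma, adjusted p = 0.538). It was 0.94 without Pakerine + RGCL library 2 (adjusted p = 0.708) and 2.80 without library 1 of that group (adjusted p = 0.0309). Leaving out any other library gave an adjusted p between 0.495 and 0.81.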
